A study of Homo sapiens with 20 samples.

Results

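The mRNA levels of 10 fibroblast growth factor (FGF) family genes were followed while human neural progenitor cells were differentiated toward neurons. Included were the 4 receptors FGFR1 to FGFR4, the secreted ligands FGF1, FGF2 and FGF9, and the intracellular FGF homologous factors FGF11, FGF13 and FGF14. The genes were chosen by name, with earlier results of these data known. Each symbol had 1 coding record among the 20237 coding and 38369 total records of the series. Of the 10, 9 had a record of their own, and FGF11 shared a merged record with the neighbouring genes CHRNB1 and SPEM1.

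The cells were neural progenitors from the H1 embryonic stem cell line (human, established), grown on Matrigel in medium with FGF (which FGF is not given in the sources used here). The labels name no genetic change, and the groups differed in time of differentiation, in the medium and in the plate. On day 0 the cells were in the proliferation medium, and from then on FGF was withdrawn and the neurotrophic factor BDNF was added. The base medium changed at the same switch from a mixture to Neurobasal alone, and its supplements changed too. These parts of the switch cannot be told apart. Polyadenylated RNA was sequenced in 3 cultures each on days 0, 1, 2, 4, 11 and 18 and in 2 cultures on day 5. Cells for days 5, 11 and 18 had been moved on day 4 to wells coated with poly-D-lysine and laminin, so the step between days 4 and 5 cannot be told apart from replating.

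FGF receptors are tyrosine kinases at the cell surface that bind secreted FGFs together with heparan sulfate and signal mainly through the RAS-ERK pathway. In the developing nervous system this signal keeps progenitors dividing, and FGFR1, FGFR2 and FGFR3 are the receptors known from neural stem cells and radial glia. The FGF homologous factors share the FGF fold but are not secreted and do not signal through these receptors. They bind the cytoplasmic tails of voltage-gated sodium channels, and FGF13 also binds microtubules.

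All values are FPKM (fragments per kilobase of transcript, scaled to the mapped fragments of the library), a level per length that can be compared between genes. Each record had 1 value per day, estimated over that day's cultures. No spread between cultures can therefore be given for any value, the read depth behind a value is unknown, and no test was run. Changes are differences in log2(FPKM + 0.1), which understate the change of low genes, and a gene was called where the change was 2-fold or more. Calls were made on coding records whose mean FPKM was 1 or more, of which there were 11793, and 8 of the 10 genes passed this minimum (FGFR4 and FGF1 did not). As a scale for small differences, the step between days 1 and 2 had the fewest calls, and its median absolute log2 change was 0.09 for coding records with a mean FPKM of 10 to 30, 0.11 for those of 3 to 10, 0.17 for those of 1 to 3 and 0.24 for those of 0.1 to 1. These medians hold real change and error together.

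FPKM values summed over all records went from 413978 on day 0 to 251156 on day 18, and the median log2 change of the 11793 coding records between days 0 and 18 was -0.60. Changes below are as deposited, and the change relative to this median is given for the 10 genes where it alters a call, and for lists as counts. As a description of the labelled cells, 7 of 8 neuron markers were called higher on day 18. Over the 11793 coding records 7.57% were called higher and 29.9% lower, and relative to the median 14.7% and 12.1%. The marker not called was GAP43, at 193 on day 0 and 173 on day 18. ELAVL4 averaged below 1 FPKM up to day 5 and passed the minimum through its late values, so the count supports nothing further. The summed FPKM of the 8 neuron markers went from 343 to 1270. Of 7 progenitor markers, 3 were called higher (PAX6, HES5 and SLC1A3), 1 lower (NES) and 3 neither, and relative to the median 4 were called higher and 0 lower. The 4 proliferation markers were called lower, with a sum of 361 on day 0 and 64.8 on day 18. Some mesenchymal markers were present on day 0, and 4 of 7 were called lower (3 relative to the median), their sum going from 291 to 37.0, while COL1A1 was listed at 0 on every day. Of 8 glial markers 2 were above the minimum, with 1 called lower (0 relative to the median), the sum lay between 21.2 and 37.1, and GFAP (at most 0.186) and OLIG2 (at most 0.130) were near 0. Endothelial markers, 3 of 4 with a record, summed to 6.29 on day 0 and 0.194 on day 18, and 4 pluripotency markers to 9.82 and 2.29. The part of these shifts in the changes below was not tested. In RNA from whole cultures, fewer cells of a type and less RNA per cell cannot be told apart.

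Between days 0 and 18, 3 of the 8 genes above the minimum were called higher, FGFR2, FGF9 and FGF14, and 1 was called lower, FGFR1. Over the 11793 coding records the same rule called 7.57% higher and 29.9% lower. FGF9 and FGF14 averaged below 1 FPKM up to day 5 and passed the minimum through days 11 and 18, where they were high, so the count of 3 is a description and supports nothing about the family. Relative to the median of coding records (-0.60) 5 were called higher, FGF11 and FGF13 joining the other three, and 0 lower, where the background was 14.7% higher and 12.1% lower. The fall of FGFR1 past 2-fold thus depended on the scaling of the days. As the median was negative, recentring raised every change. FGFR2, FGF9 and FGF14 could therefore only stay called higher, and recentring is no check on these calls. With a pseudocount of 1 and no recentring, FGFR2 (1.57) and FGF14 (1.37) stayed past the threshold, and FGF9 (0.81) was under it.

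FGFR1 was the most abundant of the 10 genes on every day. Its record lies on chromosome 8 of hg19, from 38268657 to 38326352 on the minus strand, and holds 16 transcripts. FPKM of FGFR1 was 114 on day 0, 98.6 on day 1, 90.3 on day 2, 99.5 on day 4, 106 on day 5, 64.8 on day 11 and 46.6 on day 18. Values of the other genes follow in the same order of days. The level stayed near 100 across the switch of medium and the replating, and the lower values came on days 11 and 18. Its largest step lay between days 5 and 11 (log2 change -0.71). Over the whole course the change was -1.29, or -0.69 relative to the median of coding records. By rank, FGFR1 was the 528th highest of the 11793 coding records on day 0 and the 788th on day 18.

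FGFR2 was the receptor called higher between days 0 and 18. This receptor is known for its epithelial and mesenchymal splice forms, which the gene-level values do not separate. The record (chromosome 10, 123237845 to 123357972, minus strand) had an FPKM of 6.11, 13.0, 12.2, 18.6, 13.5, 35.0 and 20.1. Day 0 was thus the lowest and day 11 the highest, a ratio of 5.72. There were 2 steps past 2-fold, the first day (log2 change 1.08) and the step between days 5 and 11 (1.37). Between them the values on days 4 and 5 differed by -0.47, where coding records with a mean FPKM of 10 to 30 had a median absolute change of 0.11. Between days 11 and 18 the change was -0.79, or -0.52 relative to the median of coding records at that step. The net change between days 0 and 18 was 1.70, and 3.76% of coding records with a mean FPKM of 10 to 30 were called higher.

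FGFR3, which in the embryonic brain marks progenitors and later astrocytes, was highest in the first days. On its record (plus strand of chromosome 4, 1795039 to 1810599) the FPKM was 14.5, 25.8, 29.2, 31.0, 22.9, 22.9 and 18.2. Values on days 1 to 4 were the highest, and day 0 was the lowest. Between days 0 and 1 the log2 change was 0.83, just under the 2-fold threshold, and between days 0 and 4 it was 1.09. Like FGFR2, it was lower on day 5 than on day 4, with a change of -0.43. By day 18 the net change was 0.33 (0.92 relative to the median), under the threshold in both cases.

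FGFR4, a receptor best known from liver and muscle (chromosome 5, 176513921 to 176525124, plus strand), stayed between 0.347 and 0.722 FPKM and was below the minimum for calls. Its values on the 7 days were 0.385, 0.347, 0.435, 0.375, 0.589, 0.350 and 0.722. No direction is read from them.

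**Figure D1:**
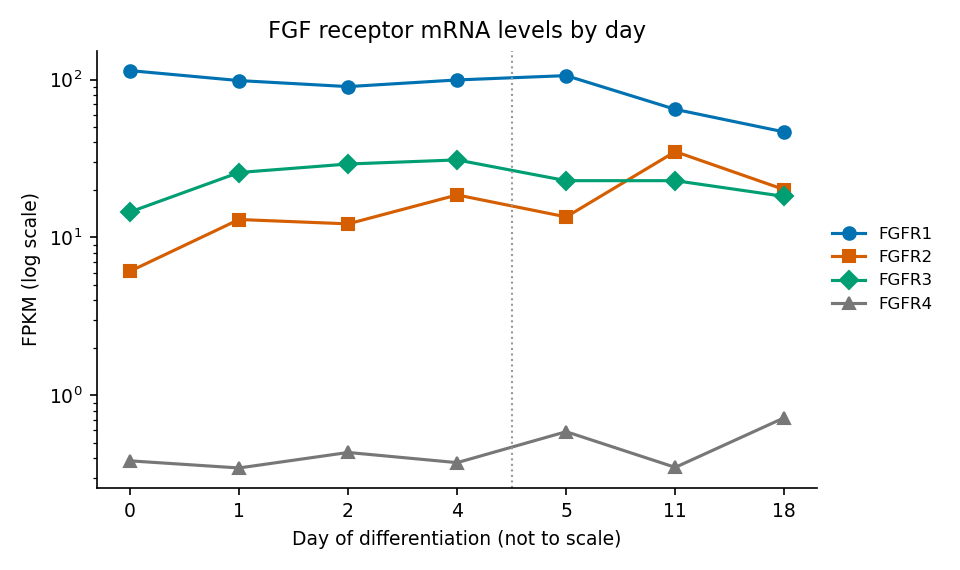
FPKM of the 4 FGF receptors (log axis) on the 7 days of differentiation, 1 point per day estimated over 2 or 3 cultures, with no error available. The dotted line marks replating on day 4. FGFR1 went from 114 to 46.6, FGFR2 from 6.11 to a highest value of 35.0 on day 11, and FGFR4 stayed under 1.

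The make-up of receptor mRNA does not depend on how the days were scaled against each other, so shares of the summed FPKM of FGFR1 to FGFR4 were compared. FGFR1 held 84.4% of the sum on day 0, 71.6% on day 1, 68.3% on day 2, 66.5% on day 4, 74.1% on day 5, 52.7% on day 11 and 54.4% on day 18. The share of FGFR2 was 4.53% on day 0, 9.47% on day 1, 28.4% on day 11 and 23.5% on day 18. FGFR3 went from 10.7% on day 0 to 22.1% on day 2 and 21.2% on day 18. FGFR4 never exceeded 0.843%. FGFR1 thus led on every day, with a smaller share after the first day and again after day 5.

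The ratio of FGFR1 to FGFR2 shows the same in a single number. It was 18.6 on day 0, 7.56 on day 1, 7.38 on day 2, 5.34 on day 4, 7.85 on day 5, 1.85 on day 11 and 2.31 on day 18. FGFR3 was 2.37 times as abundant as FGFR2 on day 0 but 0.654 times on day 11. On day 18 this ratio was 0.903, and with no spread between cultures FGFR2 and FGFR3 cannot be placed in order on that day. The summed FPKM of the 4 receptors was between 123 and 150 on days 0 to 11 and 85.7 on day 18.

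**Figure D2:**
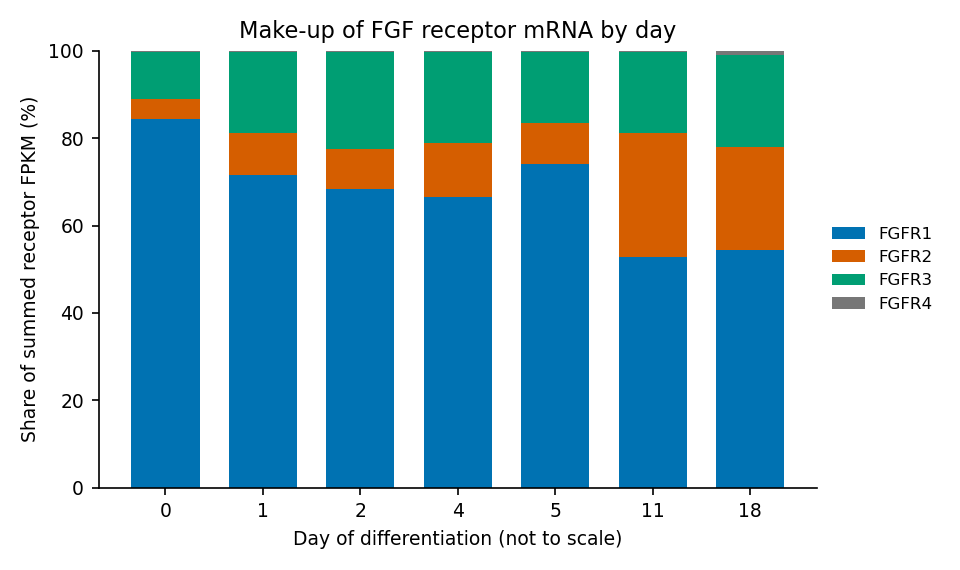
Stacked bars give the share of each receptor (%) in the summed FPKM of FGFR1 to FGFR4 on each day, with no error available. FGFR1 made up 84.4% on day 0 and 54.4% on day 18, and FGFR2 4.53% and 23.5%.

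Antisense lincRNA records lie over both FGFR1 and FGFR3. Exons of linc-FGFR3-AS cover 83.4% of the exon bases of FGFR3, and its FPKM was 1.33 on day 0, 2.63 on day 2 and 1.41 on day 18, a course like that of FGFR3 itself. Exons of linc-FGFR1-AS cover 29.6% of those of FGFR1, with an FPKM of 5.10 on day 0 and 2.19 on day 18. As reads of both strands may be counted together, these antisense values cannot be told apart from those of the receptors.

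Of the ligands FGF1, FGF2 and FGF9, FGF2 was the most abundant on every day. FGF2 is the ligand commonly used to keep neural stem cells dividing. On its record (plus strand of chromosome 4, 123747863 to 123819390) the FPKM was 5.38, 5.10, 6.53, 5.43, 4.60, 3.90 and 3.34. No step passed 2-fold, and the largest had a log2 change of 0.35, between days 1 and 2. From day 2 on, each later value was lower than the one before. The net change of -0.67 was close to the median of coding records, and relative to it FGF2 changed by -0.07. The exons of NUDT6, transcribed from the other strand, cover 9.32% of the exon bases of FGF2, and NUDT6 went from 4.12 on day 0 to 1.55 on day 18.

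FGF9, a ligand made by neurons and glia that acts on FGFR3 and the mesenchymal splice form of FGFR2 in particular, was low, and all later days were above day 0. FPKM was 0.543, 0.929, 0.945, 1.23, 1.13, 1.60 and 1.71 (chromosome 13, 22245215 to 22278640, plus strand). No single step reached 2-fold. FPKM on day 18 was 3.16 times that on day 0, and among coding records with a mean FPKM of 1 to 3, which includes FGF9, 21.8% were called higher. With a pseudocount of 1 its log2 change was 0.81, under the threshold. The value of FGF9 carries a limit: a lincRNA record at its start, linc-FGF9-BP (22202462 to 22246308, minus strand), overlaps 24.2% of its exon bases and was far more abundant, at 44.7 FPKM on day 0, 55.5 on day 4 and 24.1 on day 18. Counting by strand is not stated. Both records were higher on day 4 than on day 0, and both were lower on day 5 than on day 4. On day 18 FGF9 was above its value on day 4 and the lincRNA below. Whether the overlap entered the values of FGF9 was not tested.

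FGF1, a ligand that binds all FGF receptors, was near the bottom of the scale at first. Its FPKM was 0.0999, 0.0573, 0.0618, 0.195, 0.160, 0.841 and 1.03 (chromosome 5, 141971744 to 142077635, minus strand). Days 0 to 5 were all below 0.2, and days 11 and 18 were above 0.8. With a mean FPKM of 0.349 the gene was below the minimum for calls. Its step between days 5 and 11 had a log2 change of 1.86, where 6.44% of coding records with a mean FPKM of 0.1 to 1 were past 2-fold higher.

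Among the 3 ligands followed here, the share of FGF2 was smaller late. FGF2 held 89.3% of the summed FPKM of the 3 ligands on day 0, 79.2% on day 4, 61.5% on day 11 and 54.9% on day 18. The share of FGF9 went from 9.03% to 28.2% and that of FGF1 from 1.66% to 16.9%. Meanwhile the sum itself stayed between 5.89 and 7.54. FGF10, another secreted ligand, is left out of this sum. Its FPKM was 8.82 on day 0 and 1.34 on day 18, against 5.38 and 3.34 for FGF2. With it the shares and the sum would differ, so both hold for these 3 ligands only.

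FGF13 was the most abundant homologous factor on days 0 to 18, level with the merged FGF11 record on day 1. Its record (chromosome X, 137713736 to 138287185, minus strand) had an FPKM of 11.3, 11.4, 10.6, 11.8, 13.0, 18.8 and 19.9. Values on days 0 to 5 lay between 10.6 and 13.0, and those on days 11 and 18 above them. Its largest step (0.53 on the log2 scale) lay between days 5 and 11. The net change of 0.81 was under the threshold as deposited and past it relative to the median (1.40).

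FGF14, the homologous factor named in inherited spinocerebellar ataxia, had an FPKM of 0.991, 1.02, 0.668, 1.15, 1.16, 2.54 and 4.13 (chromosome 13, 102372163 to 103054124, minus strand). The days up to day 5 lay near 1 and the last days stood above them. FGF14 was called at the step between days 5 and 11 (log2 change 1.07), and the next step added 0.68. Between days 0 and 18 it changed by 1.95. Of coding records at its level, a mean FPKM of 1 to 3, 21.8% were called higher over these days and 5.99% at the step between days 5 and 11. The ratio of FGF13 to FGF14 was 11.4 on day 0, 11.2 on day 5, 7.39 on day 11 and 4.82 on day 18.

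The record that holds FGF11 had an FPKM of 5.51, 11.4, 10.0, 8.42, 7.22, 5.04 and 7.91. It had its highest value on day 1, with a log2 change of 1.03 from day 0, lower values on each later day up to day 11, and a change of 0.64 in the last step. These values cannot be assigned to FGF11. The record runs from 7323422 to 7360931 on the plus strand of chromosome 17. By the GENCODE annotation on GRCh37, 38.8% of its 8752 exon bases lie in FGF11 (7341592 to 7348256), 47.9% in CHRNB1, a muscle acetylcholine receptor subunit, and 11.2% in SPEM1, a sperm maturation gene. Of its 10 transcripts, 6 touch FGF11.

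**Figure D3:**
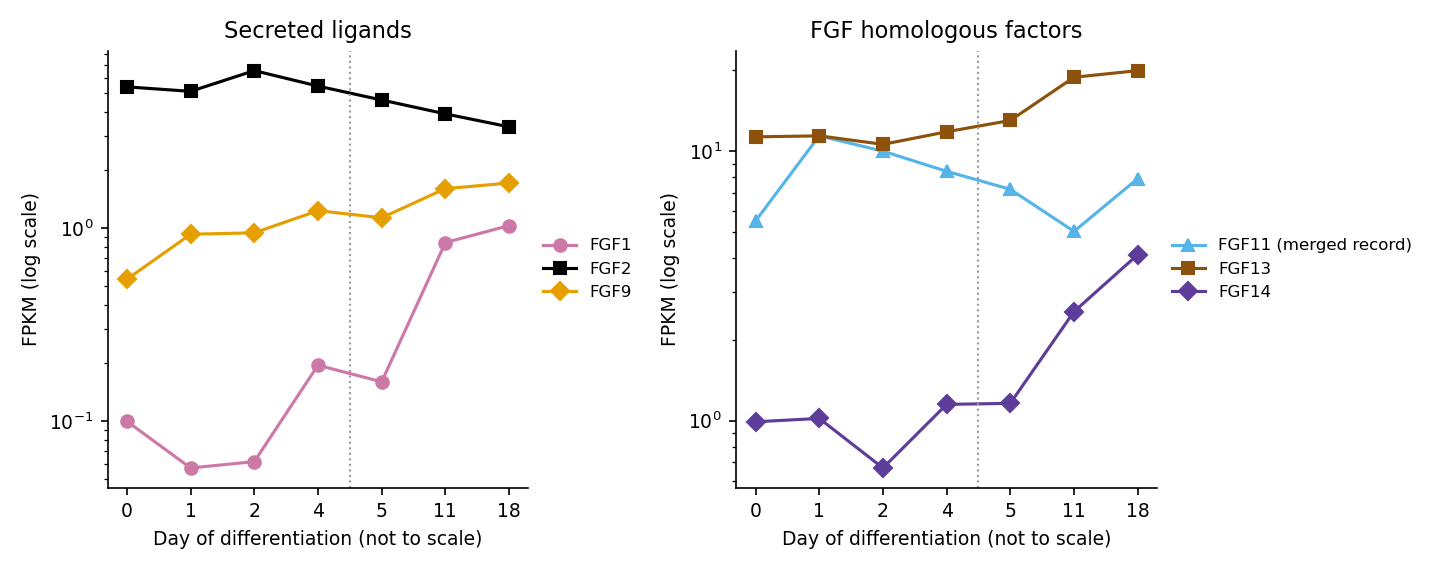
FPKM (log axis) of the secreted ligands (left) and the FGF homologous factors (right) by day, 1 point per day estimated over 2 or 3 cultures, with no error available; the dotted line marks replating. FGF1 stayed below 0.2 up to day 5 and reached 1.03 on day 18, while FGF14 went from 0.991 to 4.13.

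The steps between adjacent days were then compared. Between days 0 and 1, the step with the switch of medium, 2 of the 8 genes were called, both higher. They were FGFR2 and the merged FGF11 record, and 6.69% of coding records were called in either direction. Between days 5 and 11, 2 were called, FGFR2 and FGF14, both higher, against 6.04%. FGF14 averaged below 1 FPKM up to day 5 and passed the minimum through its late values, so this count is a description only. At the other 4 steps 0 of the 8 genes were called. The share of coding records called was 0.280% between days 1 and 2, 0.780% up to day 4, 0.305% between days 4 and 5 and 4.56% after day 11. FGFR2 was the gene called at both of these steps. With a pseudocount of 1 in place of 0.1, the first step had 0 calls and the step between days 5 and 11 had 1. FGFR3 (0.83) and FGF9 (0.68) also had positive changes on the first day, when FGF2, FGF13 and FGF14 changed by -0.07, 0.01 and 0.04.

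**Figure D4:**
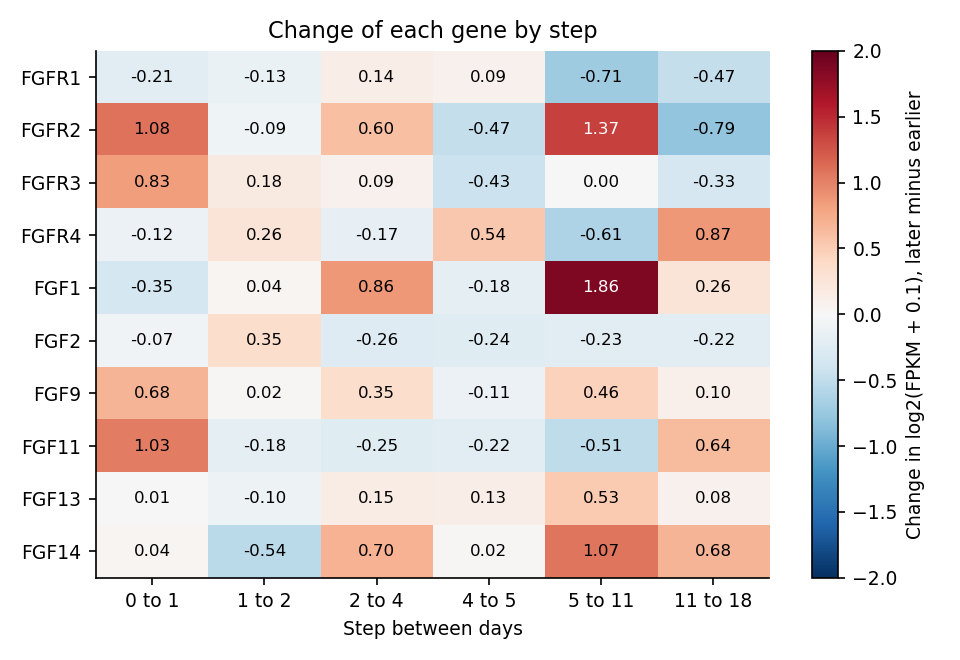
Change in log2(FPKM + 0.1) of each of the 10 genes at the 6 steps between adjacent days, later minus earlier, red for higher and blue for lower. FGF11 stands for its merged record, and FGFR4 and FGF1 had a mean FPKM below 1. FGFR2 has values of 1.08 and 1.37 at the first step and between days 5 and 11.

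To show what sequence precedes these genes, the 250 bases before the most upstream RefSeq start were taken from the RefSeq promoter table, which has an entry for 8 of the 10 genes (build GRCh38.p14). The 35116 promoters of that table had a median GC content of 58.0% and a median of 11 CpG. FGFR2 had 78.4% GC and 42 CpG, and FGFR3 86.8% and 40 CpG. At the other end, FGF1 had 44.8% GC and 2 CpG and FGF14 had 60.8% and 9. These 4 are printed to set the 2 receptors with the most CpG beside the 2 genes with the fewest. FGFR2, like FGF1 and FGF14, was past 2-fold higher between days 5 and 11. Capitals mark the GC box, searched as GGGCGG on both strands, which 42.6% of all promoters in the table hold. There were 3 in FGFR2, 8 in FGFR3 and 0 in FGF1 and FGF14. The windows lie at chr10:121598445-121598694 (minus strand) for FGFR2, chr4:1793043-1793292 (plus strand) for FGFR3, chr5:142698071-142698320 (minus strand) for FGF1 and chr13:102402444-102402693 (minus strand) for FGF14.
FGFR2: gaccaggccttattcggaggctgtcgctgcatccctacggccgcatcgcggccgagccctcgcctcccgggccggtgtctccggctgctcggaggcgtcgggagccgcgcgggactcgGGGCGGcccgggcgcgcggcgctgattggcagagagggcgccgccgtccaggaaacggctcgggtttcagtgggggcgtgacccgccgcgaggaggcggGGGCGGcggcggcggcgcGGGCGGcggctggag
FGFR3: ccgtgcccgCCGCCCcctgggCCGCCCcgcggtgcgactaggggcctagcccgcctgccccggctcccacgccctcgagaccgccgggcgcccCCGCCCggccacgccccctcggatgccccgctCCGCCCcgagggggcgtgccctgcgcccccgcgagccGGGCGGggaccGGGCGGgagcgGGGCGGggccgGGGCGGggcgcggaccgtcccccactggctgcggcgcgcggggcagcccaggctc
FGF1: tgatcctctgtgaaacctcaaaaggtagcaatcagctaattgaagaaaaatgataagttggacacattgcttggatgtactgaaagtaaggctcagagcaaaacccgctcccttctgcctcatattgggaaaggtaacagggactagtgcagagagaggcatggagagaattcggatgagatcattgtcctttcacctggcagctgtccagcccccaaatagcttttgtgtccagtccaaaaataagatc
FGF14: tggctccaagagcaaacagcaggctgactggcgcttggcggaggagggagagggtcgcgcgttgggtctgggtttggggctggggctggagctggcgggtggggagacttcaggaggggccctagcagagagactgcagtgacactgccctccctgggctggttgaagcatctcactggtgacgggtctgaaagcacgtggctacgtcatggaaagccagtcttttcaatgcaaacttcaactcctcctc

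The TATA box, searched as TATAAA on both strands, was in 0 of these 4 windows, against 10.7% of all promoters. The letters TGGGAA, the core bound by the Notch effector RBPJ, were in that of FGF1 and in 20.8% of all promoters. A match is a description of the letters only.

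Other genes of the pathway were examined as lists, whose counts stand against the shares over all coding records given above: 7.57% higher and 29.9% lower as deposited, and 14.7% higher and 12.1% lower relative to the median. A gene that is low on most days can pass the minimum through its high days alone, so list counts and medians are descriptions. Among the other 16 FGF genes, 14 had a mean FPKM below 1, and FGF4 and FGF16 were listed at 0 on every day. The 2 above the minimum were called lower. FGF10, a ligand of mesenchyme and of early radial glia, had 8.82 on day 0, 8.67 on day 1, 3.83 on day 11 and 1.34 on day 18, a log2 change of -2.63. FGF12, a further homologous factor, went from 7.91 to 3.38 (-1.20), unlike FGF13 and FGF14, and relative to the median it changed by -0.61. FGF10 was above FGF2 in FPKM on days 0, 1, 2 and 5.

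Of the 12 co-receptors and extracellular modulators, 8 were above the minimum, 3 of them called higher and 2 lower, with a median change of -0.25. NCAM1, an adhesion molecule that can bind FGF receptors, went from 9.31 to 133 (log2 change 3.82). KAL1, which encodes the FGFR1-binding protein anosmin, went from 1.29 to 5.85 in the first day and to 8.42 on day 18 (2.61), and FLRT1 from 0.355 to 2.47 (2.50). FGFRL1, a receptor without a kinase domain, went from 21.7 to 9.82 (-1.13). CDH2, or N-cadherin, the highest of the list by mean FPKM, was at 167 on day 0 and 123 on day 18. Relative to the median 3 were called higher and 0 lower.

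Heparan sulfate is needed for FGFs to bind their receptors, and the mRNA of most of its core proteins was lower at the end. Of 12 cores 11 were above the minimum, 7 were called lower and 1 higher, with a median change of -2.20. Relative to the median of coding records 6 were called lower. GPC4, the most abundant on average, was at 187 on day 0, 251 on day 4 and 39.0 on day 18. SDC4 changed by -3.43, SDC2 by -3.17 (196 to 21.7), HSPG2, or perlecan, by -2.60 and GPC3 by -2.58. The one called higher was GPC2, named here after its values were seen, which went from 26.5 to 72.6 (1.45).

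The heparan sulfate enzymes went both ways. Of 16, 14 were above the minimum, 8 were called lower and 2 higher, and relative to the median 4 lower and 3 higher. SULF1 and SULF2, the extracellular sulfatases that trim FGF-binding sites, changed by -5.02 (9.72 to 0.202) and -1.79 (46.8 to 13.4). The 3-O-sulfotransferase HS3ST1 changed by -1.78. NDST4 changed by 1.94 and NDST3, named after its values were seen, by 1.23, both N-deacetylase/N-sulfotransferases. HS6ST1, the most abundant enzyme, was at 56.3 on day 0 and 74.6 on day 18.

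Inside the cell, 12 of 12 receptor-proximal adaptors were above the minimum, and 10 were called in neither direction. The 2 called lower were SHC1, from 91.8 to 13.5 (-2.75), and SHB, from 3.09 to 0.684 (-2.02), a count of 2 of 12 that lies under the background of 29.9%. Relative to the median 2 were called higher as well. In the list of ERK feedback regulators and ETS targets, 8 of 11 were called lower, against 29.9% of coding records, and 3 of 11 relative to the median, against 12.1%. ETV4 was at 69.3 on day 0, 15.5 on day 1, 4.44 on day 11 and 10.0 on day 18. On the same days SPRY1 was at 44.7, 10.3, 3.67 and 7.86. DUSP6 was at 45.6, 46.9, 10.7 and 14.5, and ETV5 at 16.1, 10.1, 3.60 and 5.30. The summed FPKM of the list was 338 on day 0, lowest on day 11 (89.7) and 120 on day 18.

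The sodium channel genes, whose products the homologous factors bind, include several that were low at first. Of 10 genes 6 were above the minimum, 4 were called higher and 0 lower. Of these, SCN1A and SCN2A averaged below 1 FPKM up to day 5 and passed the minimum through their late values, so the count is no support for a change of the group. SCN3A went from 1.80 to 15.4 (3.03), SCN3B from 0.247 to 3.94 (3.54), SCN2A from 0.685 to 5.53 (2.84) and SCN1A from 0.751 to 4.36 (2.39). SCN8A, the highest on average, was at 9.86 and 8.59.

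**Figure D5:**
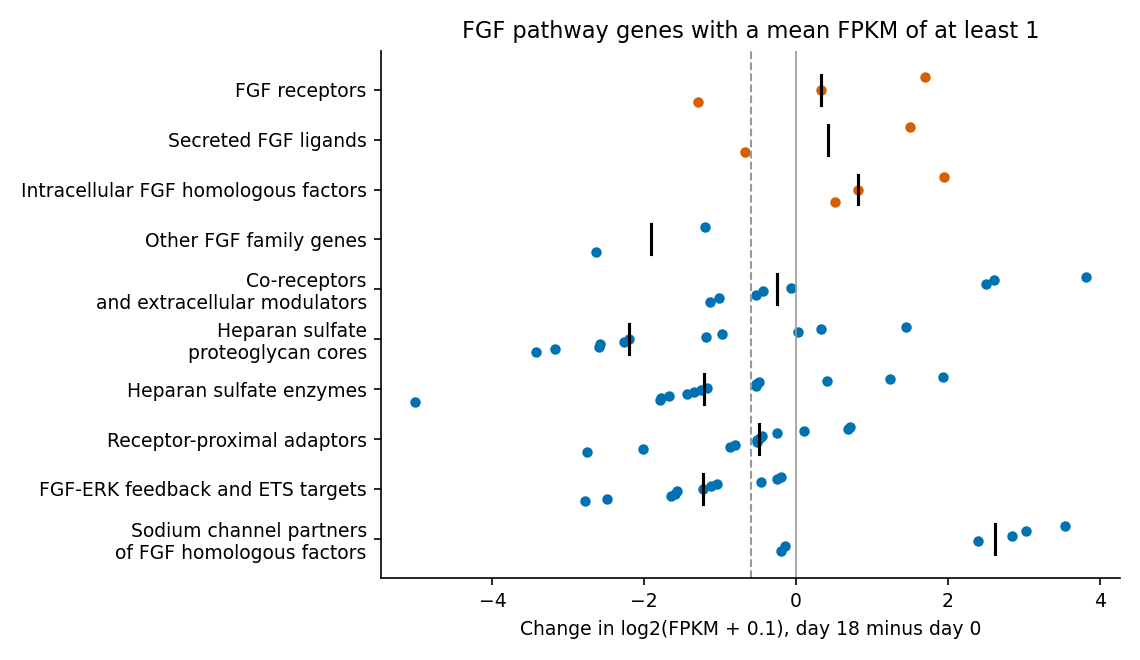
Change in log2(FPKM + 0.1) between days 0 and 18 for each gene above the minimum of 1 in mean FPKM, by list (orange, the genes this report follows; blue, other pathway genes). Black bars are list medians, the solid line is no change and the dashed line the median of coding records (-0.60). Genes for the core proteins of heparan sulfate have a median of -2.20, and FGFR2 lies at 1.70 and FGFR1 at -1.29.

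The coding records whose log2 values followed each gene most closely over the 7 days were listed as a description. With 7 points along a single time course, each estimated over that day's cultures, high correlations arise readily. FGFR1 correlated above 0.9 with 2916 of 11792 records and FGF2 with 1486, the courses shared by many genes that were lower late. FGFR2 had 184 such records, led by ZNF704 (Pearson r = 0.995), MXD4 (0.985) and PNRC1 (0.985). FGFR3 had 244, led by ASPRV1 (0.992), NBPF1 (0.987) and RFX2 (0.985). For FGF9 the closest were TUB (0.994), YPEL1 (0.991) and FAM155A (0.991), for FGF13 RORB, BEND5 and C11orf87 (each 0.993), and for FGF14 PRKAR2B (0.990), C3orf70 (0.983) and ST6GAL2 (0.983). The closest to FGFR1 were the merged FAS and STAMBPL1 record and C14orf149 (each 0.997) and PGGT1B (0.994), and to FGF2 PPP1R3D (0.993), CEP120 (0.991) and C19orf43 (0.989). The merged FGF11 record had 25, with DDIT4, a stress-induced regulator of mTOR signalling, closest (0.978), then ACRC (0.956) and POPDC2 (0.952).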

How the data were processed

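Polyadenylated RNA of 20 cultures over 7 days was sequenced as paired reads by the study. Per its methods, the authors used TopHat2 for alignment (hg19), Cufflinks for transcript assembly and Cuffdiff2, on default settings, for expression. Versions are not given in the sources used here. The deposited FPKM values hold 1 value per record and day, which Cuffdiff2 estimated over that day's cultures. The number of columns of single samples was 0, so depth and replicate spread are unknown. A second deposited table repeats these FPKM values beside the authors' own comparisons of adjacent days (fold changes, test statistics, p-values and q-values). Those comparisons were not used. The tables differed for 4 records, none of them analysed here.

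Members and lists were chosen with earlier results of these data known. Per symbol, the coding record with the highest mean FPKM was kept. Changes in log2(FPKM + 0.1) were called at 2-fold among coding records whose mean FPKM was 1 or more, with no test. From each pathway list, the most abundant gene and up to 4 called genes with the largest changes were named, and likeness was Pearson correlation over 7 days (3 closest records per gene). Python 3.11.15, pandas 2.3.3 and NumPy 2.4.6 were used. The calling step was run on simulated records with a known change and no noise, which checks the code and not the error of a call. Alternatives were the pseudocount, the scaling of the days, the fold, the minimum and the choice of record.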

Additional observations from a re-analysis of the deposited data

How the results depend on the processing

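No paired analysis was possible because the files hold 1 value per record and day, and for the same reason no replicate could be left out. Between days 0 and 18, 3 genes were called higher and 1 lower. Recentring on the median gave 5 higher and 0 lower, scaling FPKM to a common total 6 higher and 0 lower, and a 1.5-fold threshold 2 lower. At the step between days 0 and 1, the 2 calls became 0 with a pseudocount of 1 and 4 at 1.5-fold, and between days 5 and 11 the 2 became 1 with a pseudocount of 1. The 0 calls became 2 at 1.5-fold between days 2 and 4, and 3 between days 11 and 18. The other counts stayed within 1.5 times, including the count without the merged record, an alternative chosen after seeing the data. No gene's net change reversed under a pseudocount of 1, recentring or summing records. With a pseudocount of 1 the log2 changes of FGF1 (0.88) and FGF9 (0.81) were under the threshold. Receptor shares were the same when all coding records of a symbol were summed, as each symbol had 1. With depth unknown, no counting error can be given, also for the low values of FGFR4 and FGF1.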
